A study of Homo sapiens with 12 samples.

Results

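The chemokine transcripts of tumor cells were examined across 4 human cancer cell lines, each as parental cells and with SIVA constructs. The members were taken by gene name from the table of raw counts: *CXCL1*, *CXCL2*, *CXCL3*, *CXCL5*, *CXCL8*, *CCL2*, *CCL5*, *CCL20*, *CXCL16* and *CX3CL1*, 10 of the 57187 genes in the table. All 10 had at least 10 counts in 1 or more libraries, and 5 of them (*CXCL1*, *CXCL2*, *CXCL3*, *CXCL8* and *CXCL16*) passed the low-count filter used for the tests.

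The study sequenced 12 libraries, 1 for each of 3 conditions in 2 breast cancer lines (MDA-MB-231, HCC1954) and 2 ovarian cancer lines (OVCAR8, SKOV3; OVAR-8 and SKOV-3 in the labels). The conditions were parental cells, cells overexpressing wild-type SIVA (*SIVA-WT*) and cells overexpressing the point mutant *SIVA-D160N*. SIVA is a pro-apoptotic adaptor protein, and both constructs were driven by the CMV promoter and kept as stable transfectants under hygromycin, described as polyclonal pools in HCC1954, OVCAR8 and SKOV3; the study's MDA-MB-231 cells are described as carrying luciferase. The labels give the controls as parental with no treatment, whereas the study's text compares with empty-vector (EV) cells; if the controls were untransfected, transfection with selection and the SIVA protein cannot be told apart. All cells were grown in RPMI-1640 with serum, and the labels give no animal, donor or separate culture behind a library. P-values therefore measure the spread between these libraries, across lines except in the fit by line described below.

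Total counts were 35791455 to 45890398 per library. *SIVA1* was 2.02 to 2.87 times as high in the transfectants as in the parental library in 3 lines. The library labelled HCC1954 parental had 0 *SIVA1* counts, against 1646 in the library labelled *SIVA-WT* and 930 in the library labelled *SIVA-D160N*. Line markers were measured as well: *ERBB2*, amplified in HCC1954 and SKOV3, had a median of 7697 and 8860 CPM there and 35.4 and 74.6 CPM in MDA-MB-231 and OVCAR8, and the keratins *KRT8* and *KRT18* had at least 7691 counts in every library. Of 8 leukocyte markers, *PTPRC* and *CD3E* did not exceed 27 and 3 counts, while *NCAM1* reached 447 and *CSF1R* 221. Levels are given as CPM, the usual count per 1000000 reads: counts divided by the library total after TMM scaling; a library with 0 counts may hold up to 0.0664 to 0.0856 CPM, the level of 3 counts.

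Chemokines are small proteins that guide leukocytes along a gradient by binding receptors on their surface. Those of the CXC class with an ELR motif (*CXCL1*, *CXCL2*, *CXCL3*, *CXCL5* and *CXCL8*) act on *CXCR2*, *CXCL8* also on *CXCR1*, and attract neutrophils. *CCL2* attracts monocytes through *CCR2*, *CCL5* attracts T cells and monocytes, and *CCL20* attracts cells bearing *CCR6*. *CXCL16* and *CX3CL1* are made as membrane-anchored proteins that bind *CXCR6* and *CX3CR1* and are released by ADAM proteases. In epithelial and tumor cells, many of these genes are switched on by NF-κB after IL-1 or TNF signaling.

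The 5 ELR genes lie together on the long arm of chromosome 4 (GRCh38.p14, RefSeq): *CXCL8* at chr4:73740569-73743716, *CXCL1* at chr4:73869393-73871308, *CXCL5* at chr4:73995642-73998677, *CXCL3* at chr4:74036589-74038689 and *CXCL2* at chr4:74097040-74099195. *CCL2* (chr17:34255285-34257203), *CCL5* (chr17:35871491-35880360) and *CXCL16* (chr17:4733533-4739928) are on chromosome 17. *CCL20* lies at chr2:227813842-227817556 and *CX3CL1* at chr16:57372490-57385044. *CXCL1*, *CXCL2* and *CXCL3* are close paralogs, but no stretch of 100 bases in the canonical transcript of an ELR gene (GENCODE 44) was found unchanged in that of another ELR gene.

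RefSeq promoter windows, 250 bases before to 50 after the start of the gene, were at hand for 6 members. They are shown because the letters of an NF-κB-type element recur at nearly the same distance from the start in genes whose levels differed widely between lines. All 5 ELR promoters held GGAATTTCC on the strand of the gene; both strands were searched. The first base of the match lay 78, 77, 78, 90 and 91 bases before the start of *CXCL1*, *CXCL2*, *CXCL3*, *CXCL5* and *CXCL8*. The match occurred in 162 of 35116 promoters in the RefSeq table (0.461%). *CCL20* held GGGAAAACC, searched on both strands and present in 154 promoters (0.439%), 80 bases before its start. Both letter strings were chosen after these windows had been read, and a match is a description, not a binding site. The windows run 5′ to 3′ on the strand of the gene, all upstream of the start, with the match in capitals:
CXCL1, chr4:73869295-73869343, plus strand: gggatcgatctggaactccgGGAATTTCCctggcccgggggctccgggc
CXCL2, chr4:74099244-74099292, minus strand: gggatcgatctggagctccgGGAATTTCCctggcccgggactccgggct
CXCL3, chr4:74038739-74038787, minus strand: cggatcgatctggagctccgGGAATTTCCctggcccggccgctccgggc
CXCL5, chr4:73998739-73998787, minus strand: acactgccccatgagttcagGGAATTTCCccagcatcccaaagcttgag
CXCL8, chr4:73740458-73740506, plus strand: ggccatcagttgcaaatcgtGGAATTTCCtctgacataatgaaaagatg
CCL20, chr2:227813742-227813790, plus strand: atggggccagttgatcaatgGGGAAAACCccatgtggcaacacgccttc

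Over the 250 bases before the start, *CXCL1* and *CXCL3* were identical in 81.4% of aligned columns, *CXCL2* and *CXCL3* in 73.3%, and *CXCL1* and *CXCL2* in 68.0%. *CXCL5*, *CXCL8* and *CCL20* were 40.5% to 50.7% identical with any other of the 6. In SKOV3, *CXCL1* was at a median of 74.7 CPM, *CXCL3* at 1.85 CPM and *CXCL2* at 2.44 CPM. In MDA-MB-231 the medians were closer, at 0.607, 1.04 and 2.25 CPM in the same order. A link between promoter likeness and level was not tested.

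The first comparison was of the cell lines, over the 3 libraries of each line. The edgeR quasi-likelihood F-test between cell lines called all 5 members tested (FDR under 0.05), but it also called 93.9% of the 17211 genes tested, so that a difference between lines was the rule. Adjusted p-values were 5.005e-09 for *CXCL1*, 1.387e-10 for *CXCL16*, 0.0001631 for *CXCL8*, 0.0118 for *CXCL2* and 0.0263 for *CXCL3*. Without the *SIVA-WT* libraries 3 of the 5 were called. With every gene of at least 1 count tested, all 10 members were called, beside 59% of genes. *CXCL5*, *CCL20*, *CCL2*, *CCL5* and *CX3CL1* entered this wider test through counts in 1 line, with few in the others. Their calls between lines follow from that and are given as a description.

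*CXCL1*, also known as GROα, was the leading chemokine of SKOV3. It had 74.7, 93.2 and 72.5 CPM there in the parental, *SIVA-WT* and *SIVA-D160N* libraries. OVCAR8 had 1.78, 3.34 and 4.11 CPM, MDA-MB-231 had 1.26, 0.455 and 0.607 CPM, and in HCC1954 the gene had 1, 0 and 0 counts. None of the 4 lines overlapped with its neighbor in this order.

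*CXCL8*, which encodes interleukin-8, was high in 2 lines. SKOV3 had 23.1, 24.0 and 19.0 CPM in the same order of conditions, and HCC1954 18.0, 22.9 and 48.3 CPM. MDA-MB-231 had 11.2, 5.51 and 2.07 CPM and OVCAR8 0.630, 0.999 and 2.20 CPM. SKOV3 and HCC1954 overlapped, as did MDA-MB-231 and OVCAR8, and every library of the former pair was above every library of the latter.

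*CXCL2* was the most evenly spread ELR gene beside *CXCL3*. It had 9.29, 11.6 and 11.6 CPM in OVCAR8 and 4.39, 10.2 and 6.59 CPM in HCC1954, which overlapped. SKOV3 had 2.23, 3.12 and 2.44 CPM and MDA-MB-231 8.12, 2.25 and 1.26 CPM. The MDA-MB-231 parental library stood above both of its transfectants and above all SKOV3 libraries. *CXCL3*, a further neutrophil attractant, stayed between 0.603 and 2.32 CPM in the 12 libraries, and its 3 SKOV3 libraries (1.64 to 1.85 CPM) lay above those of HCC1954 (1.03 to 1.27 CPM).

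*CXCL5* and *CCL20* were OVCAR8 transcripts. *CXCL5* had 253, 310 and 402 counts in the parental, *SIVA-WT* and *SIVA-D160N* libraries of OVCAR8 (6.94, 8.15 and 10.5 CPM). Among the 9 other libraries, only HCC1954 parental had any *CXCL5* count, and it had 1. *CCL20* had 128, 252 and 294 counts in OVCAR8 (3.51, 6.62 and 7.69 CPM), 5 to 11 in MDA-MB-231 and at most 4 in the libraries of HCC1954 and SKOV3. The lowest OVCAR8 library exceeded the highest library of any other line for both genes.

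*CCL2*, *CCL5*, *CX3CL1* and *CXCL16* were highest in HCC1954. *CCL2* had 1369, 1180 and 390 counts there (32.9, 27.4 and 11.1 CPM), and of the other libraries only SKOV3 *SIVA-D160N* had any, with 2 counts. *CX3CL1*, which encodes fractalkine, had 3007, 1817 and 663 counts in HCC1954 (72.2, 42.2 and 18.9 CPM) and at most 3 counts in any library of another line. *CCL5* had 44, 18 and 9 counts in HCC1954 (1.06, 0.418 and 0.257 CPM) and at most 1 elsewhere. These 3 genes had the same order of libraries, parental highest, and none of their HCC1954 libraries overlapped with another line.

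*CXCL16* had 62.1, 59.7 and 62.2 CPM in HCC1954 and differed little among its libraries. SKOV3 had 2.76, 2.85 and 2.64 CPM, OVCAR8 0.850, 1.71 and 1.15 CPM, and MDA-MB-231 0.0885, 0.101 and 0.0486 CPM. The 4 lines did not overlap. HCC1954 thus had both membrane-anchored chemokines, and MDA-MB-231 had neither above 0.101 CPM.

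**Figure D1:**
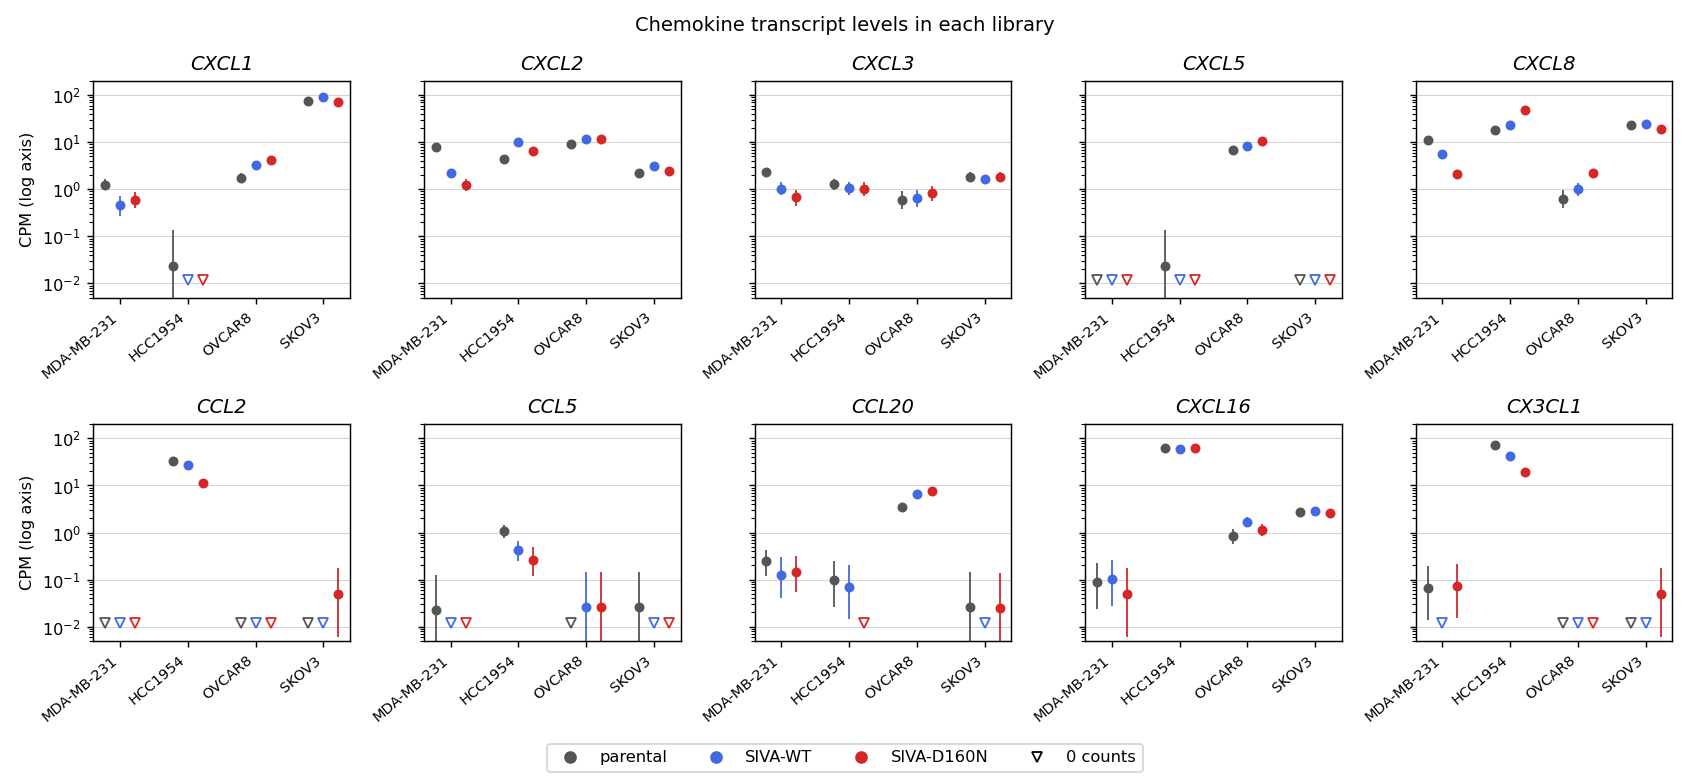
Level of each chemokine transcript (CPM, log axis) in the 12 libraries, grouped by cell line on the x axis and colored by condition; bars are 95% Poisson intervals, which cover counting error only, and open triangles, drawn at an arbitrary height, stand for 0 counts. *CXCL5* and *CCL20* sit high in OVCAR8, *CCL2* and *CX3CL1* in HCC1954, and *CXCL1* at 72.5 to 93.2 CPM in SKOV3.

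Levels of different genes were compared per kilobase of canonical transcript, since *CX3CL1* (3.285 kb) yields more fragments per molecule than *CCL2* (0.741 kb). The 10 members summed to 110.0, 99.9 and 84.0 CPM per kb in HCC1954 and 82.7, 99.5 and 78.5 CPM per kb in SKOV3 (parental, *SIVA-WT* and *SIVA-D160N*). OVCAR8 had 18.2, 26.5 and 30.0 CPM per kb and MDA-MB-231 17.7, 6.92 and 3.76 CPM per kb. Both HER2-amplified lines were therefore well above the other lines in all libraries.

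The make-up of that sum differed as well. In SKOV3, *CXCL1* made up 77.0%, 79.7% and 78.7% of it, and *CXCL8* 17.0%, 14.7% and 14.8%. In OVCAR8, *CXCL2* led with 45.8%, 39.3% and 34.5%, followed by *CCL20* with 23.1%, 29.9% and 30.7%. In HCC1954, the leading transcript was *CCL2* in parental and *SIVA-WT* cells (40.3% and 37.0%) and *CXCL8* in *SIVA-D160N* cells (35.0%), where *CCL2* was at 17.9%. *CXCL16* made up 24.3%, 25.7% and 31.8% in that line. By CPM without transcript length, *CX3CL1* led in parental cells (72.2 CPM) and *CXCL16* in *SIVA-WT* and *SIVA-D160N* cells (59.7 and 62.2 CPM). In MDA-MB-231, *CXCL2* and *CXCL8* together led each library, with 41.1% and 38.5% in parental, 29.2% and 48.5% in *SIVA-WT* and 30.1% and 33.5% in *SIVA-D160N* cells.

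**Figure D2:**
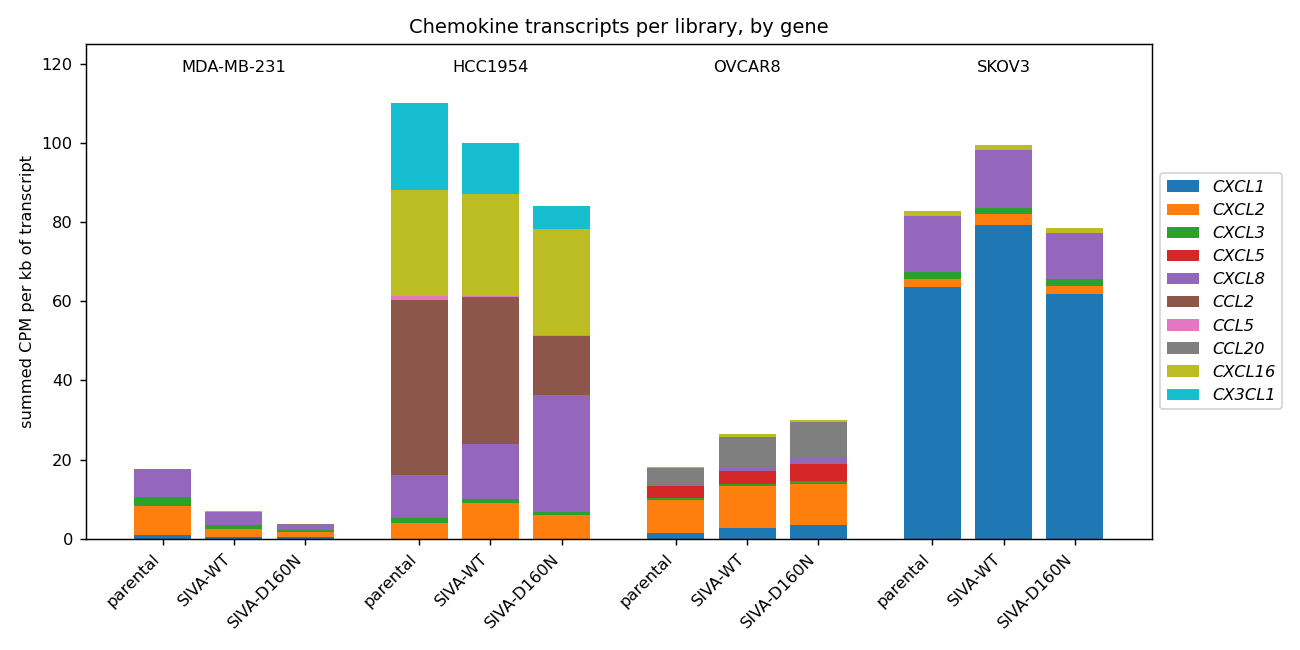
Sum of the 10 chemokine transcripts in each library (bars from 0, in CPM per kb of canonical transcript), divided by gene. SKOV3 is mostly *CXCL1*, HCC1954 is shared by *CCL2*, *CXCL16*, *CX3CL1* and *CXCL8*, and the MDA-MB-231 bars are at 17.7 in parental and 3.76 in *SIVA-D160N* cells.

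The second comparison asked what the SIVA constructs did across the 4 lines, with condition and cell line as terms. No member was called in any contrast. For *SIVA-WT* against parental cells, edgeR called 0 of 5 members and 0% of the 17211 genes tested (FDR under 0.05, with a log2 fold change of 1.5 or more in either direction). For *SIVA-D160N* against parental cells it called 0 of 5 members and 0.00581% of genes, and for *SIVA-D160N* against *SIVA-WT* cells 0 of 5 members and 0% of genes. No member had an unadjusted p under 0.05 in any of the 3 contrasts, beside 2.54%, 14.2% and 6.88% of genes in the same order, and DESeq2 and limma-voom called 0 members as well, with 0 under an unadjusted p of 0.05.

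For *SIVA-D160N* against parental cells, the fitted log2 fold changes were 0.09 ± 0.34 (SE) for *CXCL1*, -0.45 ± 0.48 for *CXCL2*, -0.44 ± 0.31 for *CXCL3*, 0.11 ± 0.52 for *CXCL8* and 0.04 ± 0.18 for *CXCL16*. Their adjusted p-values by edgeR's quasi-likelihood test were 0.547 to 0.982, and 0.402 to 1 over the alternatives tried. For *SIVA-WT* against parental cells the fitted values ran from -0.45 for *CXCL3* to 0.23 for *CXCL16*. The 4 ELR genes tested had a median of -0.17 for *SIVA-D160N* against parental cells, beside -0.01 over all genes tested.

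The remaining 5 members had too few counts outside 1 line to pass the filter. With every gene of at least 1 count tested, *CX3CL1* was called in *SIVA-D160N* against parental cells (log2 fold change -1.68 ± 0.37, adjusted p = 0.007113 by edgeR), beside 0.493% of the 34909 genes then tested, and *CCL2* was not (-1.40 ± 0.40, adjusted p = 0.0605). Both fits rest on HCC1954, since *CX3CL1* had at most 3 counts and *CCL2* at most 2 in any library of the other lines, and so on the parental HCC1954 library with 0 *SIVA1* counts.

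The effect of each construct was then compared between the ovarian and breast lines by an interaction term. No member passed in either construct (FDR under 0.05), beside 0.00581% of genes for *SIVA-D160N* and 0% for *SIVA-WT*. By edgeR, *CXCL1* had a difference of 1.57 ± 0.56 (ovarian minus breast, log2, *SIVA-D160N* against parental; unadjusted p = 0.0208, adjusted p = 0.964) and *CXCL3* 1.26 ± 0.54 (unadjusted p = 0.0443, adjusted p = 0.976). For *SIVA-WT* by edgeR, *CXCL1* had 2.03 ± 0.58 (unadjusted p = 0.006919, adjusted p = 1). These were the members under an unadjusted p of 0.05, 2 for *SIVA-D160N* beside 5.06% of genes and 1 for *SIVA-WT* beside 1.78%. limma-voom was also run on this term, and its values are not given here. *CXCL1* had 1, 0 and 0 counts in HCC1954, so the breast side of its differences rests on MDA-MB-231. For this gene, tissue cannot be told apart from that line.

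The third comparison was made within each line. There is 1 library per condition and line, so that these ratios have no replicate check; the 95% intervals beside them are exact binomial intervals of the ratio of counts and cover counting error only. A member was counted when its log2 ratio, with 2 counts added in proportion to library size, was at least 1 in absolute value. The share of all genes beside it is over the 17211 genes of the main fit, which leave out 5 members; a second count therefore takes members and genes with at least 10 counts in either library, a rule added after the values were seen.

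In MDA-MB-231, ELR chemokines were lower in both transfectants. *CXCL2* had 367, 89 and 52 counts in parental, *SIVA-WT* and *SIVA-D160N* cells, 3.61-fold lower in *SIVA-WT* (2.86 to 4.60) and 6.43-fold lower in *SIVA-D160N* (4.80 to 8.77). *CXCL8* had 506, 218 and 85 counts, 2.03-fold lower (1.73 to 2.39) and 5.42-fold lower (4.30 to 6.90). *CXCL3* had 105, 41 and 28 counts, 2.24-fold (1.55 to 3.30) and 3.41-fold lower (2.23 to 5.38). The parental library was the highest of the 3 for each of these genes. *CXCL1* had 57, 18 and 25 counts, 2.77-fold (1.61 to 5.00) and 2.08-fold lower (1.28 to 3.47).

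Counted this way, 5 members were at least 2-fold lower and 0 higher in *SIVA-WT* than in parental MDA-MB-231 cells, beside 4.57% of all genes tested in either direction. These were *CXCL1*, *CXCL2*, *CXCL3*, *CXCL8* and *CX3CL1*, the last at 0 against 3 counts, which gives no usable ratio. In *SIVA-D160N* cells 3 members (*CXCL2*, *CXCL3* and *CXCL8*) were at least 2-fold lower, beside 6.82%. Between the transfectants, *CXCL8* was 2.67-fold lower in *SIVA-D160N* (2.07 to 3.47) and *CX3CL1* had 3 against 0 counts, which made 2 members beside 3.83%. With at least 10 counts, the counts in this order were 4 of 5 members beside 4.6% of genes, 3 of 5 beside 7.43% and 1 of 4 beside 3.45%.

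In HCC1954, members differed in both directions. The parental library of this line is the library with 0 *SIVA1* counts, and each ratio to it has that library as its base; the part of this in the ratios was not tested, and *SIVA-D160N* against *SIVA-WT* does not use it. *CX3CL1* was 1.71-fold lower in *SIVA-WT* (1.61 to 1.81) and 3.81-fold lower in *SIVA-D160N* (3.50 to 4.15). *CCL2* was 1.20-fold lower (1.11 to 1.30) and 2.95-fold lower (2.64 to 3.31), and *CCL5* 2.53-fold (1.43 to 4.64) and 4.11-fold lower (1.98 to 9.57). *CXCL8*, in contrast, was 1.27-fold (1.15 to 1.40) and 2.68-fold higher (2.46 to 2.93). *CXCL2* was 2.31-fold higher in *SIVA-WT* (1.94 to 2.76) and 1.5-fold higher in *SIVA-D160N* (1.23 to 1.83). *CXCL16* was level, with ratios of 0.962 (0.911 to 1.02) and 1.00 (0.946 to 1.06).

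For *SIVA-WT* against parental HCC1954 cells 2 members were counted, *CXCL2* higher and *CCL5* lower, beside 4.49% of genes. For *SIVA-D160N* against parental cells 5 were counted beside 10.2% of genes: *CXCL8* higher, and *CCL2*, *CCL5*, *CX3CL1* and *CCL20* lower, *CCL20* at 0 against 4 counts. For *SIVA-D160N* against *SIVA-WT* cells 4 were counted beside 8.78% of genes: *CXCL8* 2.12-fold higher (1.95 to 2.29), *CCL2* 2.46-fold lower (2.19 to 2.77), *CX3CL1* 2.23-fold lower (2.04 to 2.44), and *CCL20* at 0 against 3 counts. With at least 10 counts, 2 of 7 members were counted beside 5.43% of genes, 4 of 7 beside 12.5% and 3 of 7 beside 11.3% in these contrasts. HCC1954 had the largest share of all genes past 2-fold in *SIVA-D160N* against parental cells among the 4 lines.

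The summed level of 4 endothelial markers was lowest in the same HCC1954 library as *CX3CL1* and *CCL2*. The 4 markers (*PECAM1*, *CDH5*, *VWF* and *KDR*) summed to 92.2, 79.5 and 47.8 CPM in parental, *SIVA-WT* and *SIVA-D160N* cells, and to 1.05 to 5.41 CPM in the 9 libraries of the other lines. *PECAM1*, an adhesion molecule, had 2616, 2592 and 1141 counts, and none of the 4 markers was at 0 in HCC1954. By median in HCC1954, *PECAM1* (60.2 CPM) and *CDH5* (15.7 CPM) made up most of the sum, beside 3.07 CPM for *VWF* and 0.600 CPM for *KDR*. *KDR* had higher medians in OVCAR8 (2.38 CPM) and SKOV3 (1.40 CPM). In the fit across lines its log2 fold change was 0.03 ± 0.47 for *SIVA-D160N* against parental cells, which does not give its order within HCC1954. The part of these transcripts in the *CX3CL1* and *CCL2* values was not tested. The epithelial markers summed to 5876, 5755 and 7527 CPM in the same libraries. The 8 leukocyte markers summed to 13.8, 14.2 and 14.4 CPM, in which *NCAM1* had 447, 421 and 245 counts and *CSF1R* 89, 135 and 221.

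In OVCAR8, the members with at least 10 counts had ratios to parental cells above 1 in both transfectants, some with intervals that include 1. *CCL20* was 1.89-fold higher in *SIVA-WT* (1.52 to 2.35) and 2.19-fold higher in *SIVA-D160N* (1.78 to 2.72). *CXCL1*, with 65, 127 and 157 counts, was 1.87-fold (1.38 to 2.57) and 2.31-fold higher (1.72 to 3.13). *CXCL8*, with 23, 38 and 84 counts, was 1.58-fold (0.920 to 2.79) and 3.49-fold higher (2.18 to 5.80). The *SIVA-D160N* library was the highest of the 3 for these genes and for *CXCL5*, which was 1.18-fold (0.992 to 1.39) and 1.52-fold higher (1.29 to 1.78).

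*CXCL2* was 1.25-fold (1.09 to 1.45) and 1.24-fold higher (1.08 to 1.44) in OVCAR8, and *CXCL16* 2.01-fold (1.29 to 3.19) and 1.36-fold higher (0.836 to 2.22). No member reached 2-fold after the added counts in *SIVA-WT* against parental OVCAR8 cells, beside 3.16% of genes. In *SIVA-D160N* against parental cells 3 did (*CXCL1*, *CXCL8* and *CCL20*, all higher), beside 3.51%. Between the transfectants *CXCL8* alone did, 2.20-fold higher in *SIVA-D160N* (1.48 to 3.32), beside 2.78%. With at least 10 counts, these were 0 of 7 members beside 2.94% of genes, 3 of 7 beside 3.42% and 1 of 7 beside 2.44%.

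In SKOV3, the abundant members stayed close to the parental library. *CXCL1* had 2822, 4157 and 2944 counts, a ratio to parental of 1.25 (1.19 to 1.31) in *SIVA-WT* and 0.970 (0.921 to 1.02) in *SIVA-D160N*. *CXCL8* had ratios of 1.04 (0.950 to 1.14) and 0.822 (0.745 to 0.907), and *CXCL2* of 1.40 (1.06 to 1.86) and 1.10 (0.811 to 1.48). In each of the 3 contrasts 0 members reached 2-fold, beside 5.79% of genes for *SIVA-WT* against parental, 8.74% for *SIVA-D160N* against parental and 3.09% for *SIVA-D160N* against *SIVA-WT* cells. With at least 10 counts, 0 of 5 members did in each, beside 6.47%, 9.87% and 3.17% of genes.

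**Figure D3:**
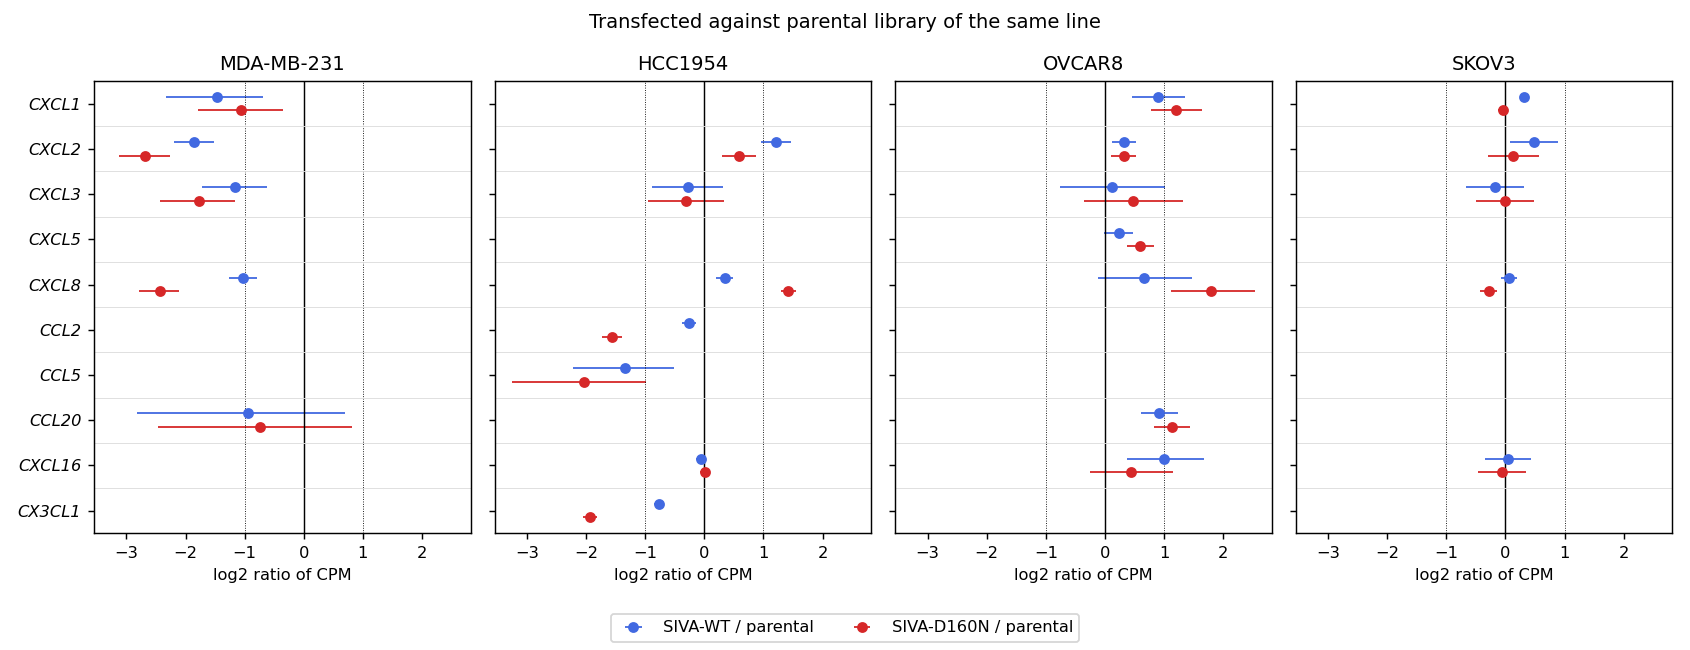
Log2 ratio of CPM of each transfectant to the parental library of the same line (x axis), for members with at least 10 counts in either library; bars are 95% exact binomial intervals, dotted lines mark a ratio of 2 in either direction, and each point is 1 library against 1. *CXCL1*, *CXCL2*, *CXCL3* and *CXCL8* lie to the left in MDA-MB-231, and *CXCL1*, *CXCL8* and *CCL20* to the right in OVCAR8.

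Since the directions differed between lines, a fit was added after the values were seen, in which each line had its own mean and both transfectants of a line were set against its parental library. It takes *SIVA-WT* and *SIVA-D160N* as repeats of 1 state and has 4 residual degrees of freedom over 19204 genes. Its p-values therefore measure the spread between the *SIVA-WT* and *SIVA-D160N* libraries within lines. Genes were filtered by line for this fit, so *CXCL5*, *CCL2*, *CCL20* and *CX3CL1* entered through the line where they were high. Where a gene had 0 counts in all libraries of a line, its outcome there was fixed, as for *CCL2* in MDA-MB-231 and OVCAR8. Of the 9 members in the fit, 0 passed an FDR of 0.05 by edgeR in any line. The background was 0% of genes for MDA-MB-231 and for OVCAR8, 0.0156% for HCC1954 and 0.115% for SKOV3. The number of members with an unadjusted p under 0.05 was 4 for MDA-MB-231 (13% of genes), 2 for HCC1954 (10.9%), 3 for OVCAR8 (7.7%) and 0 for SKOV3 (11.5%). limma-voom called 0 members as well.

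The unadjusted list in MDA-MB-231 was *CXCL2* (log2 fold change -2.21 ± 0.36, adjusted p = 0.129 by edgeR), *CXCL3* (-1.44 ± 0.34, 0.208), *CXCL1* (-1.24 ± 0.32, 0.231) and *CXCL8* (-1.57 ± 0.59, 0.327). In HCC1954 it was *CX3CL1* (-1.24 ± 0.47, 0.420) and *CXCL2* (0.93 ± 0.38, 0.436). In OVCAR8 it was *CXCL1* (1.06 ± 0.27, 0.383), *CXCL16* (0.75 ± 0.31, 0.621) and *CCL20* (1.03 ± 0.44, 0.646). The fold changes of *CXCL1* thus had opposite signs in MDA-MB-231 and OVCAR8, and those of *CXCL2* in MDA-MB-231 and HCC1954. *CX3CL1* and *CCL20* passed the filter only through HCC1954 and OVCAR8, the lines in which they are listed, and nothing is drawn from their p-values. The HCC1954 values rest on the parental library with 0 *SIVA1* counts.

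A test that the 4 line effects were equal called 0 members, beside 0.00521% of genes. By edgeR, 4 members were under an unadjusted p of 0.05, namely *CXCL2*, *CXCL1*, *CXCL3* and *CXCL8*, beside 13.8% of genes, with adjusted p-values of 0.188, 0.214, 0.346 and 0.361; limma-voom called 0. With every gene of at least 1 count tested, *CXCL2* passed both for MDA-MB-231 (adjusted p = 0.0214 by edgeR, beside 0.166% of genes) and for unequal effects among the lines (adjusted p = 0.0480, beside 0.163%).

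Genes around the members were read from lists of other chemokines, receptors, inducers and regulators, tested by edgeR in the same fit. In *SIVA-D160N* against parental cells, an unadjusted p under 0.05 was found for 1 other chemokine (*CCL26*), 0 chemokine receptors, 2 genes of the NF-κB list, 0 cytokines, 1 cytokine receptor (*TNFRSF1A*), 1 further transcription factor (*CEBPB*) and 0 processing enzymes, beside 14.2% of all genes tested. Of 28 other chemokines, 9 had at least 10 counts in a library and 2 passed the filter, of which 0 were called in any contrast. *CXCL17*, a mucosal chemokine, was the most abundant of them and had 7071, 5463 and 2041 counts in the parental, *SIVA-WT* and *SIVA-D160N* libraries of HCC1954 and at most 2 in any other library, so that within HCC1954 it was lowest in the same library as *CX3CL1* and *CCL2*. *CCL28*, an epithelial chemokine, had a median of 25.6 CPM in HCC1954 and 0.784 to 5.36 CPM in the other lines. *CCL26* had a fitted log2 fold change of 0.70 ± 0.29 in *SIVA-D160N* against parental cells (adjusted p = 0.322 by edgeR).

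Of 22 chemokine receptors, 7 had at least 10 counts in a library. *ACKR2*, a scavenging receptor for CC chemokines, had a median of 30.5 CPM in HCC1954, the line with *CCL2* and *CCL5*, and the medians of the other lines were at most 0.123 CPM. *CXCR4*, the receptor of *CXCL12*, had a median of 6.78 CPM in OVCAR8, and the medians of the other lines were at most 0.112 CPM. *ACKR3* and *CCR10*, the 2 receptors that passed the filter, had fitted log2 fold changes of 1.09 ± 1.02 and -0.47 ± 0.36 in *SIVA-D160N* against parental cells, and 0 were called.

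All 18 genes of the NF-κB list passed the filter, and 0 were called in any contrast. In *SIVA-D160N* against parental cells 8 were above 0 and 10 below, with a median log2 fold change of -0.02, beside -0.01 over all genes. *RELA*, the p65 subunit, was steady at a median of 119.3 to 135.9 CPM in the 4 lines, and *TNIP1*, an inhibitor of the pathway, at 77.3 to 110.2 CPM. The genes with the largest fitted change were the feedback inhibitor *TNFAIP3* (0.59 ± 0.41, adjusted p = 0.536 by edgeR) and the adaptor *TRAF1* (0.57 ± 0.52, adjusted p = 0.656). Within HCC1954 these had 340, 503 and 1298 counts and 44, 65 and 245 counts, and within MDA-MB-231 380, 260 and 285 and 781, 444 and 403. The library of HCC1954 with most *CXCL8* was thus also that with most *TNFAIP3* and *TRAF1*.

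Of 12 cytokines, 9 passed the filter and 0 were called. *IL1A*, which encodes interleukin-1α, had 1086, 154 and 101 counts in MDA-MB-231 and 75, 315 and 365 in OVCAR8. In these 2 lines it differed from parental cells in the same direction as *CXCL1* and *CXCL2*, and its part in their values was not tested. In SKOV3, where the members stayed close to the parental level, it had 128, 32 and 17 counts, and in HCC1954, where *CXCL8* was higher in the transfectants, 2, 1 and 0 counts. Across lines its fitted log2 fold change for *SIVA-D160N* against parental cells was -1.81 ± 0.86 (adjusted p = 0.367 by edgeR).

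*LIF*, a cytokine of the IL-6 family, had 9760, 3700 and 3125 counts in MDA-MB-231 and 1413, 2074 and 3147 in HCC1954. *IL18* was highest in OVCAR8 with a median of 229.1 CPM, and *CSF2*, which encodes GM-CSF, had 21, 29 and 99 counts in HCC1954. Of 8 cytokine receptors and adaptors, 7 passed the filter and 0 were called. The TNF receptor *TNFRSF1A* had a fitted log2 fold change of -0.33 ± 0.08 in *SIVA-D160N* against parental cells (adjusted p = 0.168 by edgeR), while *IL6ST* was at 0.29 ± 0.16 and *IRAK1* at 0.27 ± 0.15.

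Of 8 further transcription factors, 8 passed the filter and 0 were called. *FOSL1*, an AP-1 subunit, had 28442, 16008 and 15716 counts in MDA-MB-231 and 974, 974 and 2887 in HCC1954. *CEBPB*, a factor of inflammatory promoters, had 4133, 2471 and 1341 counts in MDA-MB-231 and a fitted log2 fold change of -0.54 ± 0.19 (adjusted p = 0.262 by edgeR). *STAT3* was at -0.02 ± 0.08. Of the 4 genes that process chemokines 3 passed and 0 were called: the sheddases *ADAM10* (0.21 ± 0.10) and *ADAM17* (-0.19 ± 0.14), and *DPP4* (0.21 ± 0.28), a protease that trims several chemokines. *ADAM10* had a median of 240.5 CPM in HCC1954, the line with both membrane-anchored chemokines, and medians of 93.5 to 151 CPM in the other lines. *ADAM17* was highest in MDA-MB-231, at a median of 90.6 CPM beside 76.3 CPM in HCC1954.

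**Figure D4:**
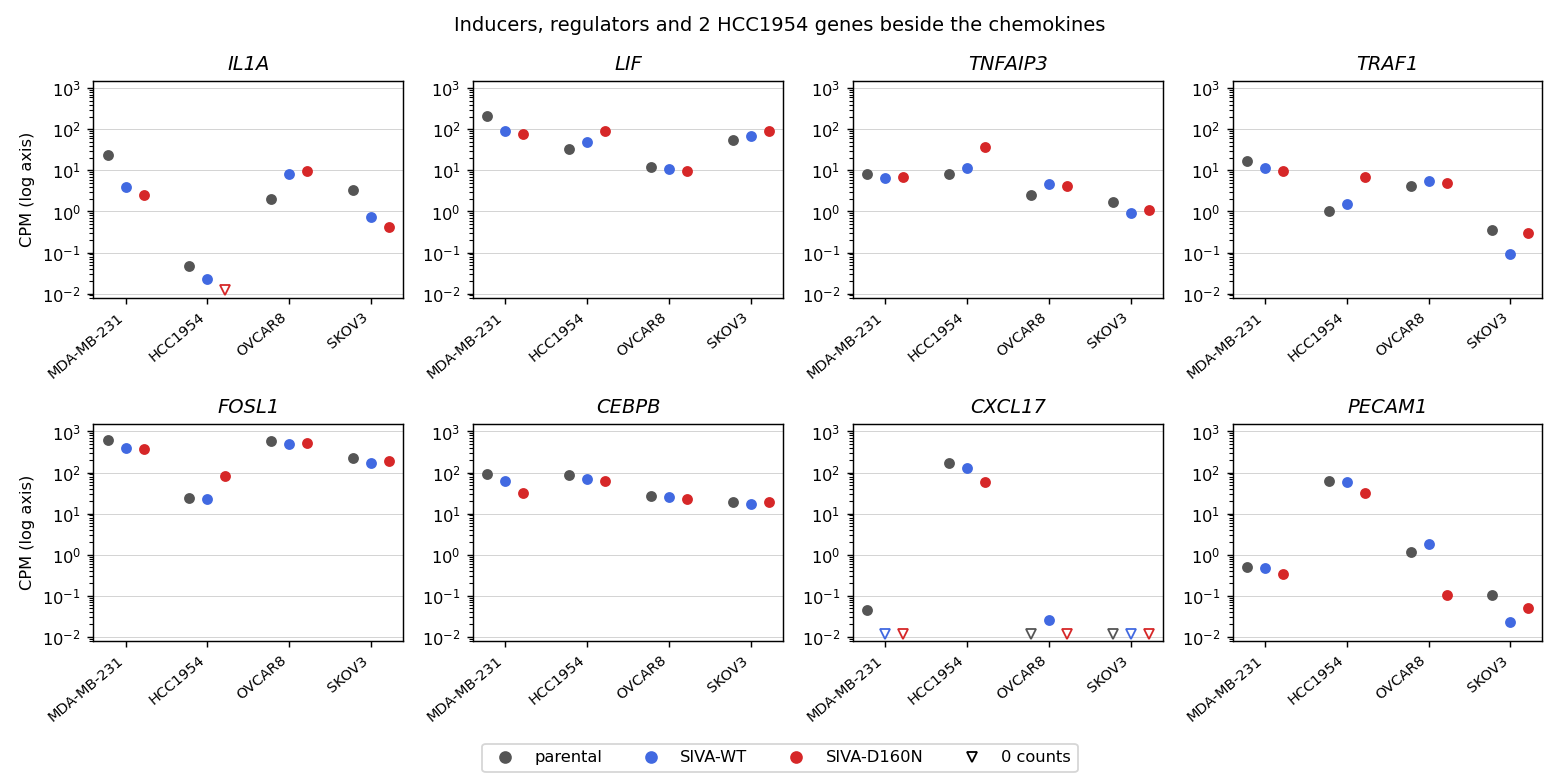
Levels (CPM, log axis) of inducers and regulators of chemokine genes and of *CXCL17* and *PECAM1* in the 12 libraries by cell line and condition, 1 point per library; open triangles, drawn at an arbitrary height, are 0 counts. *IL1A* is lower in transfected than in parental MDA-MB-231 cells and higher in OVCAR8, and among the HCC1954 libraries *CXCL17* and *PECAM1* are lowest in *SIVA-D160N* cells.

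Likeness between profiles is given as a description over 12 libraries that share 4 lines. The genes outside the list with the profile most like that of a member were *APCDD1L-AS1* for *CXCL1* (Pearson's r = 0.997), *PPP2R5B* for *CXCL2* (0.905), *RP11-1277A3.1* for *CXCL3* (0.935), *MED29* for *CXCL8* (0.966) and *HOXA-AS2* for *CXCL16* (0.991), on log2 CPM. Among the members, *CCL2* and *CX3CL1* had r = 0.993 and *CXCL5* and *CCL20* r = 0.957, each pair being high in 1 line. With the line means taken out, *CCL2* and *CX3CL1* had r = 0.819, *CXCL2* and *CXCL3* 0.791, *CXCL3* and *CXCL8* 0.721 and *CXCL2* and *CXCL8* 0.708. The r of 0.819 rests on HCC1954, since the other lines had at most 2 *CCL2* and 3 *CX3CL1* counts. *CCL5* and *CCL20*, which were highest in different lines, had 0.832. A high r thus also occurred between genes with few counts in all but 1 line.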

How the data were processed

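RNA was sequenced from 12 libraries prepared by Trizol and a stranded mRNA kit. Per the labels, the authors aligned reads to GRCh38 with STAR 2.5.3a, used FastQC and edgeR and took gene counts from the STAR output; the annotation release is not given in the sources used here. The authors deposited raw counts for 57187 genes, which were used as such. Their normalized values were not used.

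Analyses were done in R 4.3.3 with edgeR 4.0.16. Genes were filtered with filterByExpr by condition (17211 kept), scaled by TMM and tested with glmQLFit and glmQLFTest, with condition and cell line as terms and Benjamini-Hochberg adjustment over all genes tested (FDR). The line pairs the libraries: deviations from the condition means correlated at 0.929 to 0.968 within a line and -0.447 to -0.191 between lines. Negative values between lines follow in part from taking each mean over the same 4 lines, and nothing is drawn from them. Alternatives were DESeq2 1.42.0, limma-voom (limma 3.58.1), RLE scaling, no filter, no block and leaving out each line. The scripts were tested on simulated data. CPM per kb used canonical transcripts of GENCODE 44; promoters and coordinates are from RefSeq (GRCh38.p14). Precision is that of 1 library per line and condition, and Poisson and binomial intervals cover counting error only.

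The members and lists were chosen with earlier results of these data known. Named genes were the 10 members, *SIVA1*, markers, and from each other list the 2 genes with the highest mean CPM, the 2 with the largest fitted change for *SIVA-D160N* against parental cells, and any called gene; the markers *PTPRC*, *CD3E*, *KDR* and *CDH5* were named as list members. Promoters of *CXCL16*, *CCL2*, *CCL5* and *CX3CL1* were not analysed here.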

Additional observations from a re-analysis of the deposited data

Results flagged for a closer look

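Values far from the rest of their group were searched for in 38 sets of 4 lines (Dixon's test at 95%, which chance passes in about 1 of 20 sets), and 11 were found. Of these 10 were levels of a gene with counts in 1 line and at or next to 0 counts in the others, where the outcome is fixed by the tied low values and is given as a description. *CXCL5* in OVCAR8 was at 2.80, 3.04 and 3.40 log2 CPM in the parental, *SIVA-WT* and *SIVA-D160N* libraries, against -4.33 to -3.76 in the other lines. *CCL2* in HCC1954 was at 5.04, 4.78 and 3.48 log2 CPM, against -4.33 to -3.33. *CX3CL1* in HCC1954 was at 6.17, 5.40 and 4.25 log2 CPM, against -4.33 to -3.03, and *CCL5* in parental HCC1954 cells at 0.14, against -4.33 to -3.71. A log2 CPM of -4.33 stands for 0 counts.

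The remaining value was a ratio: *CXCL2* in *SIVA-D160N* against parental cells had a log2 ratio of -2.64 in MDA-MB-231, against 0.13 to 0.58 in the other 3 lines. *CXCL3* was noted because its ratio of *SIVA-D160N* to *SIVA-WT* cells was above 1 in both ovarian lines and below 1 in both breast lines. The mean log2 difference between tissues was 0.55 and was not tested. The ratios were 1.27 (0.732 to 2.24) in OVCAR8 and 1.13 (0.807 to 1.58) in SKOV3. They were 0.657 (0.391 to 1.09) in MDA-MB-231 and 0.983 (0.616 to 1.56) in HCC1954, and every interval includes 1.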

How the results depend on the processing

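No member was called in any contrast between conditions under DESeq2, limma-voom, RLE scaling, the fit with no replicate block (0 members) or without any 1 line (0 to 0). With all genes of at least 1 count, 1 member (*CX3CL1*) was called for *SIVA-D160N* against parental cells, and 1 (*CXCL2*) each for both transfectants of MDA-MB-231 and for unequal line effects. In that setting 10 were called between lines, which is a description for those with counts in 1 line. Leaving out 1 condition gave 3 to 5 members between lines. With a prior count of 0.5, members past 2-fold numbered 4 (*SIVA-WT*, HCC1954), 1 (*SIVA-WT*, OVCAR8), 2 (*SIVA-WT*, SKOV3), 5 (*SIVA-D160N*, MDA-MB-231), 3 (*SIVA-D160N*, SKOV3) and 3 (*SIVA-D160N* against *SIVA-WT*, SKOV3); without TMM 1 in *SIVA-WT* OVCAR8; with at least 10 counts, 1 for *SIVA-D160N* against *SIVA-WT* in MDA-MB-231.

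Uncalled log2 fold changes changed sign. DESeq2 gave -0.23 and -0.15 for *CXCL1* (*SIVA-WT* and *SIVA-D160N* against parental). limma-voom gave *CXCL2* 0.21 and *CXCL8* 0.027 (*SIVA-WT* against parental), and *CXCL1* -0.19 and *CXCL3* -0.042 (*SIVA-D160N* against *SIVA-WT*). All genes tested gave *CXCL1* -3e-04 in the last contrast. Without the replicate block, values were *CXCL1* -0.011 (*SIVA-D160N* against parental) and -0.33 (against *SIVA-WT*), *CXCL2* 0.18, *CXCL8* 0.012 and *CXCL16* -0.031 (*SIVA-WT* against parental), and *CXCL16* 0.036 (*SIVA-D160N* against *SIVA-WT*). Leaving out 1 line gave, for *SIVA-WT* against parental, *CXCL1* -0.28 to 0.50, *CXCL2* -0.48 to 0.68 and *CXCL8* -0.35 to 0.25. For *SIVA-D160N* against parental it gave *CXCL1* -0.43 to 0.44, *CXCL2* -0.78 to 0.35, *CXCL3* -0.68 to 0.029, *CXCL8* -0.50 to 0.89 and *CXCL16* -0.057 to 0.089. Between the transfectants it gave *CXCL1* -0.19 to 0.32, *CXCL3* -0.10 to 0.17 and *CXCL8* -0.15 to 0.64. Without MDA-MB-231, *CXCL2* was at 0.68 and 0.35 in *SIVA-WT* and *SIVA-D160N* against parental. The cause of these changes was not tested.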
